A study of Mus musculus with 4 samples.

Results

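The genes described here are those named as nuclear-encoded subunits of the mitochondrial respiratory chain and ATP synthase, measured in single cells of the late fetal mouse lung. Members were chosen by symbol alone: every gene whose name starts with Ndufa, Ndufb, Ndufc, Ndufs, Ndufv, Uqcr, Cox4, Cox5, Cox6, Cox7, Cox8 or Atp5, leaving out Cox4i2, Ndufa4l2, the Ndufaf assembly factors and pseudogenes. This gave 78 of the 20674 genes in the deposited tables. Of these, 37 have complex I names, 8 complex III names, 16 complex IV names and 17 complex V names. Names are older than some assignments: Atp5s and Atp5sl are not structural subunits of ATP synthase, and Ndufa4 is now assigned to complex IV. The study had 4 libraries. The first held fibroblasts sorted from 1 lung at E16.5 as Tbx4-lineage+ and αSMA+, from a C57BL/6 mouse that carried αSMA-GFP, Tbx4-Cre and Rosa26-tdTomato. The other 3 held live cells of E17.5 wild-type (WT) C57BL/6 lungs, 1 lung each. In the sorted cells tdTomato reports past activity of Tbx4-Cre, which marks lung mesenchyme, and GFP reports the smooth muscle actin promoter. No label names the litters of these lungs.

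Complex I takes electrons from NADH, complex III passes them from ubiquinol to cytochrome c, complex IV gives them to oxygen, and complex V (ATP synthase) uses the resulting proton gradient to make ATP. A small core in each complex carries the redox centres or active sites, and is surrounded by short accessory subunits that stabilise it. In complex IV that core is encoded by mitochondrial DNA, and its nuclear-encoded subunits carry no redox centre. Several complex IV and V subunits exist as isoforms from separate genes, some of which are best known from heart and skeletal muscle, from testis or from cells in low oxygen.

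The sort held 3085 cells with a median of 12007 unique molecular identifiers (UMIs, each counting 1 captured RNA molecule), and the lungs held 2140 to 2682 cells with medians of 7201 to 8493.5 UMIs. After 36, 34 and 28 called doublets were removed from lungs 1 to 3, those lungs gave 1862 epithelial, 1369 endothelial, 1940 mesenchymal and 2178 immune cells. Classes were rebuilt here from marker genes, so each name below means "like" that cell type. Pairs of libraries shared 7 to 13 cell barcodes. Levels are means over cells of counts per 1000000 UMIs (CPM), taken per class and lung. The sort matched its labels in its markers: Acta2, which encodes smooth muscle actin, stood at 3137 CPM in sorted mesenchyme against 1098, 1180 and 1419 CPM in the mesenchyme of the lungs. Tbx4 stood at 44.6 CPM in sorted mesenchyme and between 41.6 and 50.8 CPM in lung mesenchyme. Marker RNA of other compartments was present: the 9 type 2 cell markers summed to between 1696 and 2295 CPM in endothelium, against 48488 to 62169 CPM in epithelium. Its source, such as free RNA or missed doublets, was not tested.

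Promoters of the members were examined because these genes are known as targets of shared activators, among them NRF1, the ETS factor GABP and YY1. RefSeq promoters (GRCm38.p6, 250 bases before to 50 bases after the start) were matched for 67 of the 78 members. The 11 without an entry included Atp5a1, Cox4i1, Uqcrc2 and Uqcrq. Windows were searched on both strands, and a gene was counted when any of its promoters held the motif. The NRF1 motif CGCANGCG was held by 24 of the 67 members (35.8%), against 9.22% of all 27025 genes. Its palindromic form CGCATGCG, which is contained in the first motif, was held by 9 members (13.4% against 2.07%). They were Atp5g2, Atp5j, Atp5k, Atp5l, Cox6a1, Ndufa11, Ndufa8, Uqcr11 and Uqcrc1. The ETS and GABP motif CCGGAAG was held by 14 members (20.9% against 9.93%) and the YY1 motif AAGATGGC by 11 (16.4% against 3.19%). In all, 40 members held at least 1 of these motifs and 27 held none. The core ACGTG, known from hypoxia response elements, was held by 18 members (26.9% against 21.8% of all genes). A match describes the letters of the window and not binding.

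The following windows show the palindrome in capitals for 4 of the 9 members that hold it, 1 each from complexes I and IV and a pair from complex V. The printed windows span chr5:108434430-108434459 (minus strand) for Atp5k, chr5:115349101-115349130 (minus) for Cox6a1, chr15:102671070-102671099 (minus) for Atp5g2 and chr17:56717692-56717721 (plus) for Ndufa11. The palindrome begins 49, 161, 41 and 59 bases before the start in that order.
Atp5k: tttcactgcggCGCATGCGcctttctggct
Cox6a1: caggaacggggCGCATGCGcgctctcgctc
Atp5g2: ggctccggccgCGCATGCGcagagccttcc
Ndufa11: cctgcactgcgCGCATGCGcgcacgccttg

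The next pair shows bases 160 to 61 before the start of members that varied widely between classes, with a complex IV name (Cox5a, chr9:57521072-57521171, plus strand) and a complex I name (Ndufa4, chr6:11907511-11907610, minus strand). Capitals mark ACGTG, which occurs in the Cox5a stretch.
Cox5a: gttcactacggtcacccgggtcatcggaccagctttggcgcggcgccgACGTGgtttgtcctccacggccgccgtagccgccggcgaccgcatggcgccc
Ndufa4: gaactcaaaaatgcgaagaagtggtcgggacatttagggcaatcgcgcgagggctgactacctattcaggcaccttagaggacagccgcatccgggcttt

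Most members were measurable in every E17.5 compartment. A gene entered a test when its mean over the classes compared reached 10 CPM, which 73 members did across the 4 compartments, 74 in the alveolar epithelium and 72 in the mesenchyme. Those outside the compartment test were Atp5s, Cox6a2, Cox7a1, Cox7b2 and Cox8b, and Atp5sl also missed the mesenchymal one. Mean levels over the 4 compartments ran from 33.3 CPM (Ndufs1) to 489 CPM (Ndufa2) in complex I, from 156 CPM (Uqcrc2) to 749 CPM (Uqcrh) in complex III, from 0.061 CPM (Cox7b2) to 1495 CPM (Cox4i1) in complex IV and from 7.59 CPM (Atp5s) to 883 CPM (Atp5e) in complex V. These levels count molecules and are not divided by transcript length, so they order genes by captured molecules only. The labels do not say how reads shared with pseudogene copies, which several members have, were counted.

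The muscle isoforms of complex IV were near the floor of detection. Cox6a2, the heart and skeletal muscle form of subunit 6a, gave 91 UMIs in 44 of 10564 cells, and 34 of those UMIs came from 3 cells in which at least 4 of 8 cardiac muscle markers were detected. In 1 such cell of the sort, Cox6a2 gave 26 of the 30 UMIs of that library. Cox8b, also a muscle form, gave 32 UMIs in all, 9 of them in the same 3 cells, and Cox7b2 gave 13. Cox7a1, the muscle form of subunit 7a, gave 593 UMIs. It was low but present in macrophages and monocytes, at 19.5, 14.7 and 14.7 CPM in lungs 1 to 3. The 3 cells with cardiac markers fell in the smooth muscle class, and Cox8c was not listed in the tables.

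Members varied less between cell classes than other genes did. Across 7 classes (type 1, type 2, endothelium, matrix fibroblasts, contractile cells, pericytes, and macrophages with monocytes), the median ratio of the highest to the lowest class was 1.68 for the 71 members at 50 CPM or more and 2.61 for 1382 other genes at that level. Of these 71 members, 19 (26.8%) varied by less than 1.5-fold and 6 (8.45%) by more than 3-fold, against 10.3% and 43.4% of the other genes. The steadiest were Ndufv2, a core iron-sulfur subunit (1.19-fold), Ndufa10 (1.198-fold) and Atp5c1, the central shaft of ATP synthase (1.21-fold). The 6 most variable were Atp5g1 (3.003-fold), Ndufv3 (3.05), Uqcrq (3.29), Cox5a (4.18), Ndufa4 (12.4) and Cox6b2 (12.96). Macrophages and monocytes had the highest level for 42 of the 71 members, and contractile cells the lowest for 34, against 19.5% and 6.87% of the other genes. No test was made of these shares, since genes are not independent replicates.

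The summed share of the family differed between cell classes by more than the spread of the lungs at its extremes. Members took 3.66%, 3.43% and 3.61% of UMIs per cell in macrophages and monocytes, and 1.78%, 1.63% and 1.65% in granulocytes and mast cells, so that the immune compartment held both the highest and the lowest share of the classes with at least 20 cells in every lung. Mesenchyme took 2.43% ± 0.02 (SD, n = 3), endothelium 2.70% ± 0.02 and epithelium 2.70% ± 0.02, and these last overlap. Adventitial fibroblasts were the lowest of the mesenchyme at 1.90% ± 0.08. The 13 subunits encoded by mitochondrial DNA did not follow that order: they took 2.33% ± 0.08 in macrophages and monocytes, 2.83% ± 0.05 in endothelium and 1.88% ± 0.02 in type 2 cells. Secretory airway cells had the largest mitochondrially encoded share, 3.71% ± 0.38, beside an ordinary nuclear-encoded share of 2.79% ± 0.15. Shares of total UMIs depend on everything else a cell makes.

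**Figure D1:**
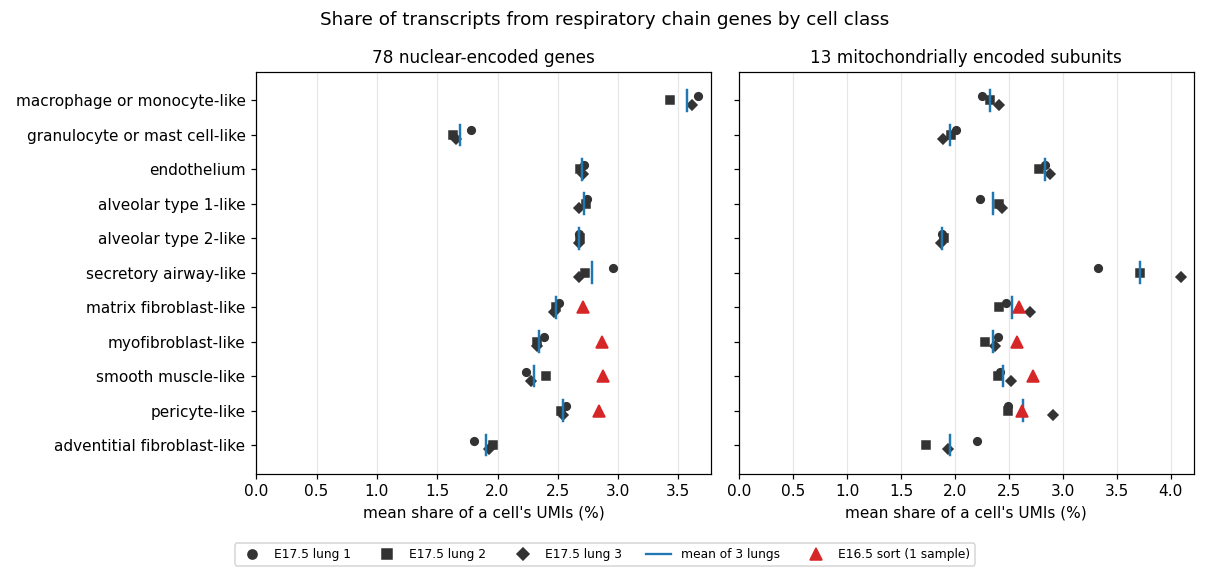
Share of each cell's UMIs in the 78 nuclear-encoded members and in the 13 mitochondrially encoded subunits (percent, x axes) by cell class (y axes); black points are single E17.5 lungs, blue bars their means and red triangles the E16.5 sort. Nuclear-encoded shares are highest in macrophages and monocytes (3.43% to 3.66%) and lowest in granulocytes and mast cells (1.63% to 1.78%), and the mitochondrially encoded shares follow another order.

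Immune cells showed the broadest rise. Against the mean of the other 3 compartments, 48 of the 73 members tested were higher and 16 lower, where 29.3% of all genes tested were called higher and 57% lower (limma, adjusted p under 0.05). The median log2 difference of the members was 0.25, against -0.25 over all genes. Complex IV moved almost as a block, with 11 of 12 members higher and 1 lower, the supercomplex factor Cox7a2l at -0.23. Complex I had 23 higher and 10 lower of 37, complex III 5 and 3 of 8, and complex V 9 and 2 of 16. With median-of-ratios scaling, which moves the median of all genes in this comparison from -0.25 to -0.02, the split of the members was 62 higher and 3 lower.

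Cox5a, the nuclear-encoded partner of the catalytic subunit Cox1 in complex IV, rose most among the members. It stood at 711, 668 and 686 CPM in the immune cells of lungs 1 to 3, at 287 to 294 CPM in epithelium, at 312 to 342 CPM in endothelium and at 179 to 185 CPM in mesenchyme, with no overlap. The log2 difference was 1.37 (SE 0.035, limma adjusted p = 3.34e-20). Within the immune compartment it was not shared evenly, since macrophages and monocytes had 717 to 764 CPM and granulocytes and mast cells 206 to 236 CPM.

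Uqcrq, a small subunit of complex III, stood at 627, 647 and 648 CPM in immune cells against 254 CPM on average elsewhere, a log2 difference of 1.31 (SE 0.034, limma adjusted p = 3.77e-20). Next were genes of ATP synthase. Atp5g1 and Atp5g3 are 2 of the 3 genes that encode the same mature subunit of the rotating c-ring. Atp5g1 was at 615, 581 and 624 CPM (log2 difference 1.12) and Atp5g3 at 1042, 889 and 1052 CPM (1.10), while the other gene, Atp5g2, rose by 0.35. Atp5k, subunit e of the membrane part, rose by 0.97.

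The members that fell in immune cells included core proteins of complexes I, III and V. Uqcrc2, a core protein of complex III, stood at 98.5, 91.4 and 91.3 CPM against 177 CPM elsewhere (log2 difference -0.85, SE 0.046, limma adjusted p = 5.78e-14). Atp5b, the catalytic beta subunit of ATP synthase, fell by 0.38. Its mean level in immune cells (587 CPM) was close to that of mesenchyme (582 CPM), below epithelium (739 CPM) and endothelium (1052 CPM). Ndufa9 was also level with mesenchyme (67.0 against 67.3 CPM), below epithelium (88.8 CPM) and endothelium (119 CPM). Ndufa9 (-0.37) and Ndufc2 (-0.36) are accessory subunits of complex I, and both calls were lost with median-of-ratios scaling, edgeR and DESeq2, while that of Atp5b was lost with DESeq2. The 5 largest rises and 5 largest falls had the same direction in 3 of 3 lungs. Beside these changes, glycolysis genes were also higher in immune cells (14 of 17) and cell cycle genes in part (7 higher and 4 lower of 13), and median depth was 6764 to 7863 UMIs against 9251 to 10807.5 in epithelium. The part of composition and depth in these differences was not tested.

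**Figure D2:**
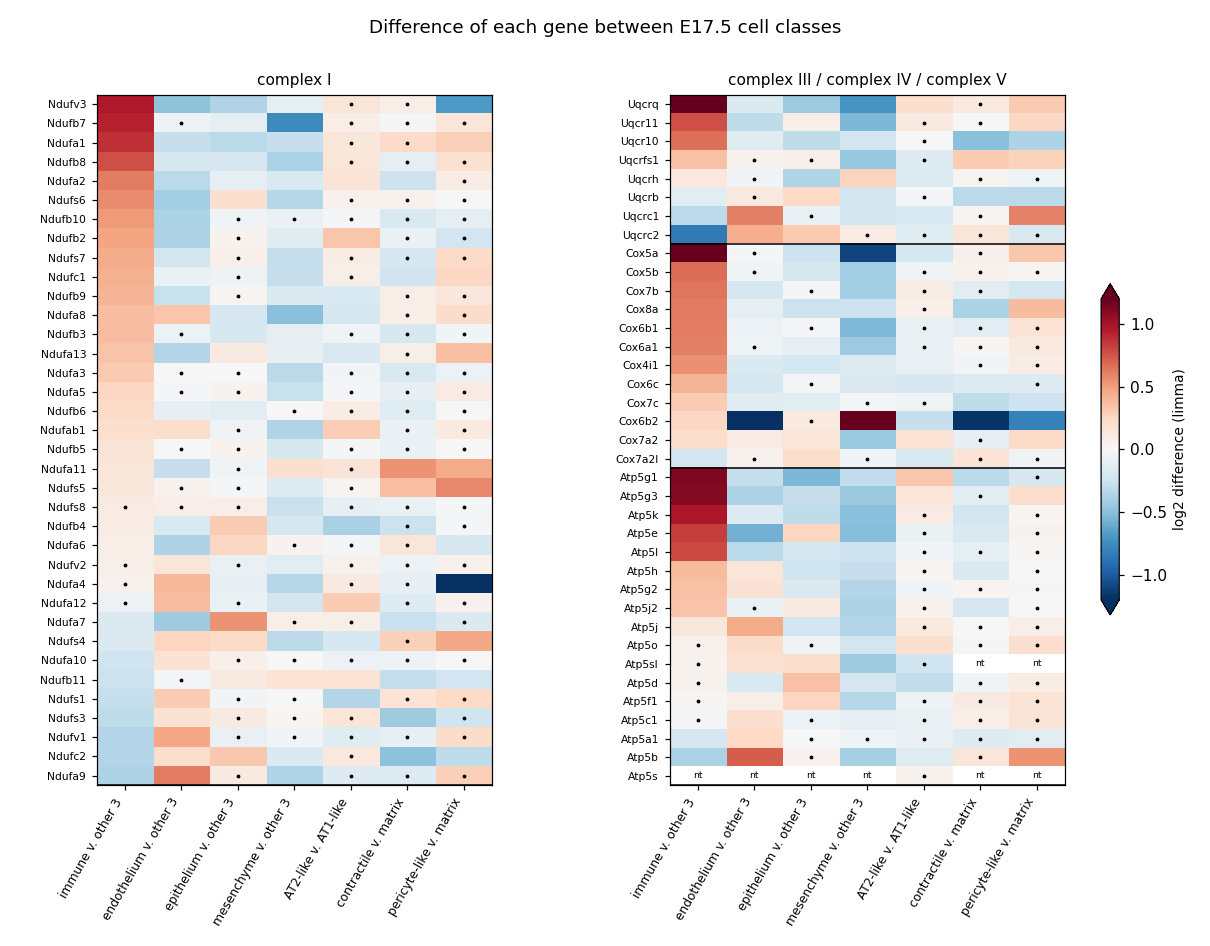
Log2 difference (colour scale) of the members shown, by complex, in 4 comparisons of an E17.5 compartment with the mean of the other 3 and in 3 comparisons within epithelium and mesenchyme; dots mark members that were not called and nt members not tested. The immune column is mostly higher (48 of 73) and the mesenchyme column mostly lower (56 of 73); the balance of the endothelial (25 higher, 32 lower), epithelial, type 2 and pericyte columns shifts with the scaling of the libraries.

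Counts were also made for a core list of 16 genes, among them Ndufs1, Ndufv1 and Ndufv2 of complex I, Uqcrfs1, Uqcrc1 and Uqcrc2 of complex III, Cox4i1, Cox5a and Cox5b of complex IV, and Atp5a1, Atp5b and Atp5c1 of complex V. The 3 complex IV genes are large nuclear-encoded subunits bound to its mitochondrially encoded core. Uqcrc1 and Uqcrc2 are core proteins by name, and the list is not limited to subunits with a redox centre or active site. In immune cells 5 of the 16 were higher and 8 lower (median log2 difference -0.10), against 43 and 8 of the 57 other members tested (median 0.34). The 5 higher were Cox5a, Cox5b (0.67), Cox4i1 (0.55), Ndufs7 (0.44) and Uqcrfs1 (0.35), the last being the Rieske iron-sulfur protein of complex III. Without the 3 complex IV genes, a grouping added after the values had been seen, 2 of 13 were higher and 8 lower (median -0.27). In endothelium 10 of the 16 were higher and 2 lower (median 0.19), against 15 and 30 of the others (median -0.08), and without complex IV 10 of 13 were higher and 1 lower. Over all genes, 29.3% were called higher and 57% lower in immune cells (median -0.25), and 50.9% and 27.7% in endothelium (median 0.15). The median of the list without complex IV in immune cells lay near that of all genes. So did the median of the full list in endothelium. No test was made of the difference between the list and the others. With median-of-ratios scaling the counts of the list were 9 higher and 3 lower in immune cells (6 and 3 without complex IV) and 4 and 8 in endothelium (4 and 5), and those of the others 53 and 0, and 3 and 47, so that the direction of the list depended on scaling.

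Genes of the core list have a longer coding length than the others, and the log2 differences followed coding length across members. This relation was examined after the values had been seen, and that with transcript length was not examined. The median coding length (GENCODE M21, longest isoform) was 858 bases for the core list and 343.5 bases for the other 62 members. Across the 73 members tested, Spearman's correlation between coding length and log2 difference was -0.54 in immune cells and 0.49 in endothelium, against -0.10 and 0.11 over the 4242 genes with a length. Members that rose in immune cells had a median coding length of 342 bases and those that fell 1098 bases. In endothelium the medians were 768 bases for higher and 327 bases for lower members. Correlations in the other comparisons were 0.37 for contractile cells against matrix fibroblasts, 0.24 for mesenchyme, 0.21 for pericytes, 0.18 for epithelium and -0.30 for type 2 against type 1 cells. These are descriptions across genes of the same libraries, and genes are not independent replicates.

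**Figure D3:**
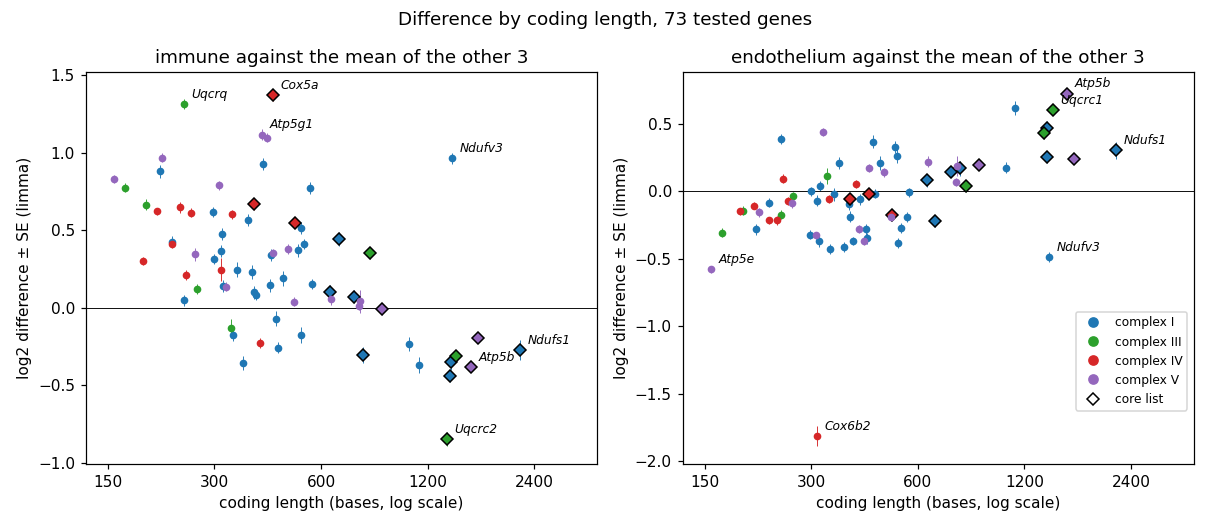
Log2 difference (y axes, bars are SE) against coding length in bases (x axes, log scale) for the 73 members tested in immune cells and in endothelium, each against the mean of the other 3 compartments. Members with a short coding length lie higher in immune cells (Spearman -0.54) and lower in endothelium (0.49).

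In endothelial cells 25 of 73 members were higher, 10 of them on the core list, and 32 were lower, where 50.9% of all genes were called higher and 27.7% lower. The median log2 difference of the members was -0.05 against 0.15 over all genes. Median-of-ratios scaling moves the latter to -0.06 and the split of the members to 7 higher and 55 lower. Complex I had 13 higher and 16 lower of 37, complex III 2 and 3 of 8, complex IV 1 and 7 of 12 and complex V 9 and 6 of 16.

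Atp5b, the catalytic subunit of ATP synthase, stood at 1040, 1071 and 1046 CPM in endothelium and at 636 CPM on average elsewhere. Its log2 difference was 0.73 (SE 0.029, limma adjusted p = 2.27e-16). Ndufa9 stood at 123, 109 and 124 CPM (log2 difference 0.62), and Uqcrc1, a core protein of complex III, at 277, 287 and 285 CPM (0.60). Ndufv1, which binds the flavin that accepts electrons from NADH, rose by 0.47 and Atp5j, of the peripheral stalk of ATP synthase, by 0.44. These 5 calls held with every scaling and test that was run.

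The lower end of endothelium was led by Cox6b2, the isoform of subunit 6b best known from testis, at 11.2, 10.1 and 10.0 CPM against 65.7 CPM on average elsewhere (log2 difference -1.81, SE 0.074, limma adjusted p = 3.16e-16). Atp5e, the short epsilon subunit of the central stalk, fell by 0.58 from a higher level (615 to 632 CPM against 971 CPM). Its mean level in mesenchyme was close, at 643 CPM, beside 966 CPM in epithelium and 1303 CPM in immune cells. Ndufv3 (-0.49), Ndufa7 (-0.43) and Ndufs6 (-0.41), all accessory to the NADH-oxidising module of complex I, were also lower. Of these, Ndufs6 was near its level in mesenchyme (180 against 186 CPM) and Ndufv3 near that in epithelium (163 against 174 CPM). Directions were the same in 3 of 3 lungs for all 10. Endothelium was also the compartment in which all 13 cell cycle genes tested were higher (median log2 difference 0.99), and their part in these values was not tested.

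Epithelium stood near the middle. Against the other compartments 18 of 73 members were higher and 25 lower (background 27.6% and 48.3%), with a median log2 difference of -0.02 against -0.12 over all genes. Median-of-ratios scaling gave 34 higher and 19 lower and a median of 0.07, so the sign of the median depends on scaling. By complex, 8 were higher and 9 lower in complex I, 3 and 3 in complex III, 2 and 6 in complex IV and 5 and 7 in complex V. Ndufa7 rose most, at 510, 521 and 522 CPM against 356 CPM elsewhere (log2 difference 0.54, SE 0.035, limma adjusted p = 3.13e-12). Atp5d, the delta subunit of the central stalk, rose by 0.35, Ndufc2 by 0.32, Uqcrc2 by 0.31 and Ndufb4 by 0.30. Atp5g1 was lowest relative to the others at 254, 249 and 249 CPM against 393 CPM (log2 difference -0.54, SE 0.033, limma adjusted p = 8.8e-13). Uqcrq fell by 0.43, Ndufv3 and the hinge protein gene Uqcrh by 0.36 each and Ndufa1 by 0.32. Immune cells had the highest mean level of Atp5g1, Uqcrq, Ndufv3 and Ndufa1 (606, 640, 357 and 294 CPM). Atp5g1 stood at 288 CPM in endothelium and 285 CPM in mesenchyme. Epithelial Uqcrq (253 CPM) lay above mesenchyme (218 CPM), and Ndufv3 (174 CPM) above endothelium (163 CPM). Ndufa1 (152 CPM) lay near endothelium (156 CPM) and mesenchyme (157 CPM). Epithelial cells were the deepest sequenced of the lung.

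Type 2 and type 1 alveolar cells, which make surfactant and form the gas exchange surface, differed in 25 of 74 members (33.8%), by at most 0.39 on the log2 scale. Of the 74 tested, 10 were higher in type 2 cells and 15 lower. Over all genes 39.9% were called, 626 higher and 884 lower of 3785, and the median log2 difference was -0.02 against -0.03 over all genes. With median-of-ratios scaling the split was 23 higher and 8 lower and the median 0.03, so neither split gives the family a direction. Ndufb2, an accessory subunit of complex I, stood at 230, 221 and 240 CPM in type 2 cells and at 179, 181 and 183 CPM in type 1 cells (log2 difference 0.33, SE 0.069, limma adjusted p = 2.42e-05). Atp5g1 rose by 0.32, Ndufa12 by 0.31 and the acyl carrier protein gene Ndufab1 by 0.29, and Uqcrq by 0.20. Lower in type 2 cells were Ndufb4 at 230, 211 and 216 CPM against 299, 276 and 295 CPM (-0.39, SE 0.065, limma adjusted p = 1.14e-07), Ndufs1, the largest iron-sulfur subunit (-0.36), Atp5d (-0.30), Cox6b2 (-0.28) and Cox5a (-0.21). By complex, higher and lower counts were 5 and 6, 1 and 2, 1 and 5, and 3 and 2 for complexes I, III, IV and V. The mitochondrially encoded subunits moved more clearly, with 11 of 12 tested lower in type 2 cells and none higher (median -0.33). All 13 cell cycle genes were higher in type 2 cells (median 1.35), and their part in these values was not tested.

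Mesenchyme was low across all complexes. Of 73 members, 5 were higher and 56 lower than in the other compartments, where 40.4% of all genes were called higher and 35.8% lower. The median log2 difference was -0.22 against 0.03 over all genes, and -0.36 with median-of-ratios scaling. Lower members numbered 26 of 37 in complex I, 6 of 8 in complex III, 9 of 12 in complex IV and 15 of 16 in complex V. Cox5a led the lower side at 179, 185 and 184 CPM (log2 difference -1.11, SE 0.035, limma adjusted p = 2.96e-18). Ndufb7, an accessory subunit on the intermembrane face of complex I, followed at 159, 162 and 149 CPM against 282 CPM elsewhere (-0.76). Uqcrq (-0.71), the small complex III subunit Uqcr11 (-0.54) and Cox6b1, the widely expressed form of subunit 6b (-0.53), came next.

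The isoform Cox6b2 went the other way from Cox6b1, at 99.5, 99.3 and 105 CPM in mesenchyme against 35.5 CPM on average elsewhere (log2 difference 1.45, SE 0.074, limma adjusted p = 2.49e-14). It stood at 133, 128 and 145 CPM in matrix fibroblasts, and at 337, 136 and 102 CPM in secretory airway cells, where lung 1 stood apart on few cells. Uqcrh was the other member that stayed higher with every scaling (0.27). Ndufa11 (0.19) and Ndufb11 (0.16) lost their calls with median-of-ratios scaling, edgeR and DESeq2. The 4 compartment comparisons use the same 12 class-by-lung values, so a rise in immune cells lowers the other compartments in part by construction. Dissociation stress genes were higher in mesenchyme (9 of 11, median log2 difference 1.35), all 13 cell cycle genes were lower, and their part in these values was not tested.

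Within the mesenchyme the clearest member was Ndufa4 in pericytes, the cells that wrap small vessels. Ndufa4 was first described as part of complex I and is now assigned to complex IV. It stood at 68.0, 41.7 and 34.3 CPM in pericytes of lungs 1 to 3 and at 474, 449 and 467 CPM in matrix fibroblasts, 9.65-fold lower in mean CPM and with no overlap. The log2 difference was -3.07 (SE 0.12, limma adjusted p = 6.17e-12), the same in 3 of 3 lungs and held with every setting run. Smooth muscle lay between, at 299.7, 336 and 314 CPM, and endothelium, which lies against pericytes, had 576 to 615 CPM. In the sort, pericytes again had less Ndufa4 (93.8 CPM) than matrix fibroblasts (620 CPM), smooth muscle (614 CPM) or myofibroblasts.

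A pair of genes outside the family, known as the low-oxygen counterparts of members, had the opposite pattern. Ndufa4l2, the paralog of Ndufa4, stood at 2034, 2299 and 2077 CPM in lung pericytes, 717, 792 and 791 CPM in smooth muscle and 192, 202 and 165 CPM in matrix fibroblasts (pericytes against matrix, log2 difference 3.45). Cox4i2, the alternative form of subunit 4, stood at 1727, 1984 and 1665 CPM in pericytes against 16.9, 24.2 and 12.7 CPM in matrix fibroblasts (6.03). The usual form, Cox4i1, did not fall with the rise of its paralog: it stood at 1452, 1497 and 1406 CPM in pericytes, and its log2 difference of 0.09 was not called (limma adjusted p = 0.109). Higd1b, of the hypoxia-inducible domain family, rose with them (6.86). The sort showed the same order, with 1495 CPM of Ndufa4l2 and 1458 CPM of Cox4i2 in pericytes against 138 and 53.6 CPM in matrix fibroblasts. Endothelium, at 10.4 to 17.7 CPM of Ndufa4l2 and 8.25 to 13.8 CPM of Cox4i2, had little of either, and the 7 endothelial markers summed to 134 to 165 CPM in pericytes and 96.7 to 159 CPM in matrix fibroblasts. Type 2 cells also had some Cox4i2 (83.8 to 104 CPM), against 16.6 to 20.5 CPM in type 1 cells.

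**Figure D4:**
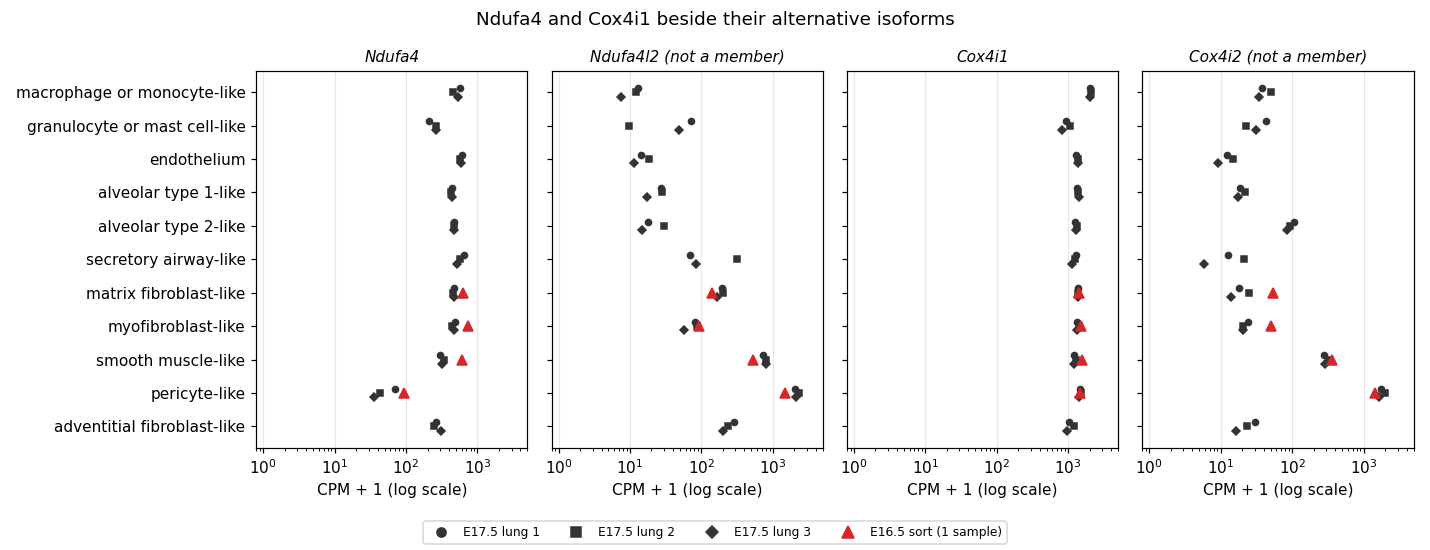
Level (CPM + 1, log scale, x axes) of Ndufa4, its paralog Ndufa4l2, Cox4i1 and its paralog Cox4i2 in 11 cell classes (y axes); black points are the E17.5 lungs and red triangles the E16.5 sort. Pericytes have the least Ndufa4 (34.3 to 68.0 CPM in the lungs) and the most Ndufa4l2 and Cox4i2, while their Cox4i1 (1406 to 1497 CPM) lies near that of matrix fibroblasts.

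Other members differed less in pericytes. Against matrix fibroblasts, 16 of 72 tested were higher and 10 lower (background 21.6% and 15.9%), with a median log2 difference of 0.05 against 0.06 over all genes. Median-of-ratios scaling gave 10 higher and 18 lower and a median of -0.04, so the balance has no fixed direction. Uqcrc1 rose most, at 246, 282 and 254 CPM against 175, 165 and 165 CPM (log2 difference 0.60, SE 0.092, limma adjusted p = 6.79e-05). Ndufs5, an accessory subunit of complex I, rose by 0.58, Atp5b by 0.54, Ndufs4, an accessory subunit of the NADH-oxidising module, by 0.46 and Ndufa11 by 0.44. The core list supplied 5 of the higher calls and none of the lower ones (4 and 3 with median-of-ratios scaling). After Ndufa4, the lower members were Cox6b2 at 83.8, 75.0 and 60.6 CPM (-0.81), Ndufv3 (-0.69) and the small complex III subunits Uqcr10 (-0.37) and Uqcrb (-0.31). By complex the higher and lower counts were 7 and 5, 4 and 2, 3 and 3, and 2 and 0. The class held 56 to 74 cells per lung.

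Contractile cells (myofibroblasts and smooth muscle) had 3 members higher and 17 lower of 72 against matrix fibroblasts, where 18.1% and 11.5% of all genes were called. The median log2 difference was -0.08 against 0.08 over all genes. Cox6b2 was lowest relative to matrix fibroblasts, at 49.5, 63.3 and 50.2 CPM (log2 difference -1.18, SE 0.13, limma adjusted p = 2.63e-06). Uqcr10 stood at 321, 320.0 (lung 2) and 332 CPM against 477, 440.0 (lung 2) and 471 CPM (-0.50). Ndufc2 fell by 0.49, Ndufs3, a core subunit of complex I, by 0.42 and Cox8a, the widely expressed form of subunit 8, by 0.38. On the higher side stood Ndufa11 at 306, 274 and 298 CPM against 189, 202 and 201 CPM (0.54, SE 0.077, limma adjusted p = 4.17e-05), Ndufs5 (0.36) and Uqcrfs1 (0.30). By complex the higher and lower counts were 2 and 6, 1 and 2, 0 and 4, and 0 and 5. Leaving out any 1 lung left 9 or 10 lower calls. Cell cycle genes were lower in contractile cells (10 of 13), and their part was not tested.

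The sort gave a second look at both mesenchymal comparisons in cells of another lung, without a test, because it is 1 library. Of the members called in contractile cells at E17.5, all 3 higher ones and 14 of the 17 lower ones had the same sign within the sort, where the shares over all genes called were 91.6% and 82.5%. For pericytes it was 15 of 16 and 7 of 10, against 84.7% and 90.2%.

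Levels in the E16.5 sort were set beside the E17.5 lungs class by class, for 71 members at 50 CPM or more. Only 1 library is E16.5, so there is no test, and stage, sort, reporter alleles, depth and library cannot be told apart. In contractile cells 64 of the 71 members lay above the highest lung and 3 below the lowest, where 50.2% and 29.2% of all genes did (median log2 difference 0.34 against 0.10 over all genes). In pericytes the counts were 45 and 6 (36.2% and 33.4% of all genes, median 0.19 against 0.03). In matrix fibroblasts, of which the sort held 172, they were 51 and 14 (58.8% and 26.9%, median 0.18 against 0.16), and with median-of-ratios scaling 33 and 30 (median 0.01). That scaling gave 60 and 5 in contractile cells and 50 and 5 in pericytes. Of the 13 mitochondrially encoded subunits, 7 lay above and 4 below in contractile cells, 4 and 7 in pericytes and 4 and 5 in matrix fibroblasts. Their summed share in contractile cells was 2.62% in the sort, above the 2.40%, 2.31% and 2.41% of the lungs, while in pericytes (2.62%) and matrix fibroblasts (2.60%) it lay within the range of the lungs. Median depth was 11344 UMIs in contractile cells of the sort against 6545 to 8132 in the lungs, and 13970 against 7151 to 8532.5 in pericytes.

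Few members passed the size set for single genes, at least 1.5-fold beyond the nearest lung. In contractile cells 2 did, both higher (4.47% of all genes were higher by this measure and 9.53% lower). Uqcrb, the ubiquinone-binding protein gene of complex III, stood at 370 CPM in the sort and at 220, 230 and 199 CPM in the lungs. Ndufa4 stood at 700 CPM against 455, 411 and 432 CPM. From summed UMIs these sort levels were 369 CPM (95% exact Poisson interval 360 to 378) and 701 CPM (688 to 714), intervals that cover counting error only. In pericytes Atp5g1 was higher at 472 CPM against 306, 236 and 275 CPM (background 3.34% higher, 9.49% lower). In matrix fibroblasts Atp5g3 was lower at 251 CPM against 484, 403 and 456 CPM (background 6.97% higher, 8.38% lower).

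The c-ring genes of ATP synthase differed in the sign of their difference between the sort and the lungs, and in contractile cells all 3 stayed within the 1.5-fold size. Atp5g3 had the lowest log2 difference of the 71 members in each of the 3 classes, at -0.52 in contractile cells, -0.62 in pericytes and -0.80 in matrix fibroblasts. Atp5g2 was higher in the sort in contractile cells, at 812 CPM against 558, 553 and 538 CPM, and Atp5g1 at 335 CPM against 241, 255 and 247 CPM. No member was apart in all 3 classes.

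**Figure D5:**
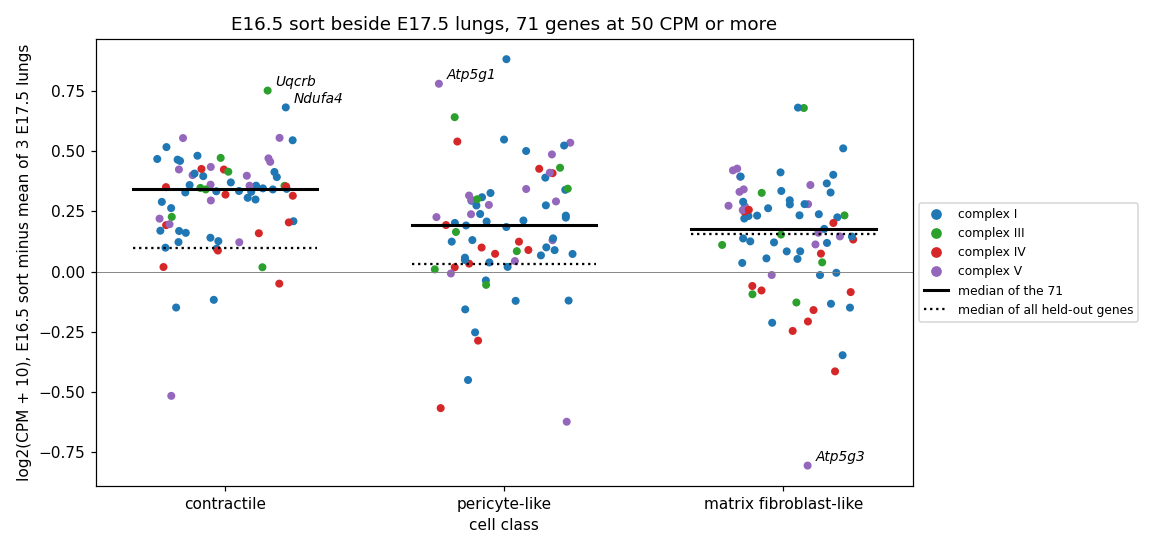
Log2 difference of the E16.5 sort from the mean of the E17.5 lungs (y axis) for 71 members, coloured by complex, in contractile cells, pericytes and matrix fibroblasts; lines mark medians of the members and of all held-out genes. Most members lie above 0 in contractile cells (64 above the highest lung) and pericytes (45), Atp5g3 lies lowest in each class, and in matrix fibroblasts the shift is lost with median-of-ratios scaling (33 above, 30 below).

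Genes that feed or assemble the chain were counted in the same fits, as higher and lower calls of those tested. Over all genes the shares called higher and lower were 29.3% and 57% in immune cells and 50.9% and 27.7% in endothelium. They were 27.6% and 48.3% in epithelium and 40.4% and 35.8% in mesenchyme. Against matrix fibroblasts they were 21.6% and 15.9% in pericytes and 18.1% and 11.5% in contractile cells. For the 13 mitochondrially encoded subunits the counts were 3 and 7 in immune cells, 12 and 1 in endothelium, 0 and 13 in epithelium and 6 and 4 in mesenchyme. In endothelium the leading ones were mt-Atp8 (0.61) and mt-Nd4l (0.59). Complex II with cytochrome c1 and cytochrome c (6 genes) gave 3 and 1 in immune cells, 5 and 0 in endothelium, 0 and 4 in epithelium and 0 and 5 in mesenchyme, with cytochrome c itself (Cycs) highest in immune cells at 0.82. For the tricarboxylic acid cycle (17 genes) the counts were 3 and 11, 13 and 1, 6 and 4, and 5 and 7 in the same order. The median log2 difference of the cycle in immune cells, -0.27, lay near the -0.25 of all genes. Idh2, its mitochondrial NADP-dependent isocitrate dehydrogenase, was 1.52 lower on the log2 scale in immune cells (log2 difference -1.52) and 0.80 higher in mesenchyme. Glycolysis (17 tested) gave 14 and 2, 6 and 7, 8 and 6, and 1 and 16, and within mesenchyme 13 and 1 in pericytes and 9 and 2 in contractile cells, where Pkm led the higher side (1.58 and 1.13).

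Among the carriers of adenine nucleotides, phosphate and protons (7 tested) the counts were 2 and 4 in immune cells, 7 and 0 in endothelium, 2 and 5 in epithelium and 2 and 4 in mesenchyme. Ucp2, an inner membrane carrier, was 2.41 higher in immune cells and Slc25a4, the heart and muscle form of the ADP/ATP carrier, 0.82 higher in mesenchyme. Complex I assembly factors (11 tested) gave 1 and 6, 8 and 0, 2 and 4, and 4 and 2 in that order. Those of complexes III, IV and V (26 tested) gave 10 and 10, 12 and 6, 3 and 9, and 7 and 12. Regulators of mitochondrial biogenesis (8 tested) gave 2 and 5, 6 and 0, 0 and 1, and 2 and 2, with Gabpb1, a GABP subunit, at 1.09 in endothelium and -0.90 in immune cells. Mitochondrial antioxidants (7 tested) gave 6 and 1, 0 and 5, 3 and 3, and 1 and 6, led by Prdx5 in immune cells (1.99) and endothelium (-1.87). The hypoxia isoforms left out of the family (5 tested) gave 1 and 3, 0 and 5, 1 and 3, and 4 and 0. Dissociation stress genes (11 tested) gave 6 and 4, 3 and 7, 1 and 9, and 9 and 0, and cell cycle genes (13 tested) 7 and 4, 13 and 0, 0 and 11, and 0 and 13. Over all genes 29.3% were higher and 57% lower in immune cells, and 50.9% and 27.7% in endothelium. Epithelium had 27.6% and 48.3%, and mesenchyme 40.4% and 35.8%. Lower calls of carriers and complex I assembly factors in immune cells lay near these shares. The 12 of 26 higher in endothelium did too.

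Calls were also counted by presence of the NRF1 motif CGCANGCG in the promoter, without a test of the difference. Over all genes 29.3% were called higher and 57% lower in immune cells, and 50.9% and 27.7% in endothelium. Epithelium had 27.6% and 48.3%, and mesenchyme 40.4% and 35.8%. In immune cells 17 of the 24 members with the motif were higher and 2 lower (median log2 difference 0.20), beside 26 and 9 of the 39 matched and tested members without it (median 0.30). In mesenchyme 20 of the 24 were lower (median -0.23), beside 30 of the 39 (median -0.28). Higher and lower calls in endothelium were 9 and 12 with the motif and 12 and 15 without it, and in epithelium 7 and 9, and 9 and 13.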

How the data were processed

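Counts of UMIs per gene and cell had been made with Cell Ranger 1.3.1 and Seurat 3.0.0, per the submitters' processing notes. The labels do not state a genome build, and their protocols speak of lysis plates while barcodes are of droplet form. The deposited values are a normalized signal: the authors divided each cell's counts by its total and multiplied by the library's median total. Whole UMIs were recovered from 100.0% of values (tolerance 0.01). The members and lists were chosen with earlier results of these data known.

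Genes were divided by a seeded hash: 10200 genes, with all markers, served for clustering, and 10474 held-out genes, with all members, for testing. After doublets were removed with Scrublet, the 3 E17.5 lungs were clustered together and the E16.5 sort was clustered alone. Both used scanpy 1.11.5 and Python 3.11.15 (2000 variable genes, 30 principal components, 15 neighbours, Leiden resolution 1). Markers of the sort's clusters were compared with the mean of the clusters of the lungs. A cluster was named when at least 3 markers of a type were raised and at least 1 was in its top 10 genes; these conditions were set after seeing the data. Testing used limma 3.58.1 on log2(mean CPM + 10), with lung as a block, for classes of at least 20 cells per lung and genes at 10 CPM or more on average, Benjamini-Hochberg over all genes tested, two-sided, called at an adjusted p under 0.05. Log2 differences are on that scale, which understates low genes. Compartment differences are from the mean of the logs of the other 3. Classes of a lung come from the same animal, and their deviations from the class means correlated on average (0.207, 0.224 and 0.362 for lungs 1 to 3). In the mesenchymal fit these were 0.116, 0.129 and 0.162. Named members are the isoform families, the core list, the highest and lowest of each complex, the 5 largest called differences each way and those apart in the sort; of the other lists, called genes of largest size. A member that is counted but not named is not reported here. The fit was tested on simulated counts with known changes set in immune cells only. That simulation had no lung effect, so it does not cover the correlation between classes of a lung. No label says that the lungs were independent litters, so p-values refer to these samples only. They combine a gene's own spread between the lungs with a spread pooled over all genes tested. The pooled part had more weight. Prior against residual degrees of freedom were 15.7 and 6 for compartments and 11.6 and 4 within mesenchyme. For type 2 against type 1 cells they were 124 and 2. Alternatives used edgeR 4.0.16 and DESeq2 1.42.0 on summed UMIs, other scalings, filters, pseudocounts, clusterings and left-out lungs.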

Additional observations from a re-analysis of the deposited data

How the results depend on the processing

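Counts of calls changed with library scaling, as did their balance in epithelium, endothelium, type 2 cells and pericytes. The cause was not tested. With every scaling, higher calls outnumbered lower ones in immune cells, and lower calls outnumbered higher ones in mesenchyme. With median-of-ratios scaling, edgeR and DESeq2, members called higher in epithelium numbered 34, 32 and 31 (16 lower with edgeR and with DESeq2), in endothelium 7, 8 and 6 (lower 55, 53 and 53), and in mesenchyme 2 each time, while those lower in immune cells numbered 3, 3 and 2. In type 2 cells higher calls were 23 with that scaling, 4 without ribosomal and mitochondrial genes, 17 from summed UMIs and 20 with edgeR, and lower calls 8, 25, and 9 with edgeR and 3 with DESeq2. Contractile cells had 32 lower with that scaling, 29 without those genes, 10 from summed UMIs and 33 with edgeR, and 1 higher with DESeq2. Pericytes had 10, 10, 9 (edgeR) and 5 (DESeq2) higher, and 18 lower with either scaling.

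Members that changed sign were Ndufa4 in epithelium (0.0019 with median-of-ratios scaling), and in endothelium, in the order median-of-ratios, edgeR, DESeq2, Atp5c1 (-0.082, -0.029, -0.057), Atp5g2 (-0.11, -0.080, -0.11), Cox7a2 (-0.19, -0.15, -0.18), Ndufs3 (-0.10, -0.086, -0.11), Ndufv2 (-0.13, -0.092, -0.12) and Atp5a1 (-0.041 and -0.025 with the first and last). In immune cells they were Atp5a1 (0.12, 0.056, 0.10), Cox7a2l (0.087, 0.0050, 0.053), Ndufs3 (0.013 with DESeq2) and Uqcrc1 (0.031 with edgeR, 0.079 with DESeq2). Over all named genes and alternatives, 1861 results kept their side, 133 lost the call and 27 changed sign.

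Leaving out 1 lung each time gave 4 to 12 higher and 6 to 13 lower in type 2 cells (fewest without lung 3), 9 to 10 lower in contractile cells, and 9 to 13 higher (fewest without lung 1) and 6 to 10 lower (fewest without lung 2) in pericytes. Members apart in the sort were 2 to 3 higher and 0 to 1 lower in pericytes, and 0 to 1 higher in matrix fibroblasts. At 2-fold none was apart (0 in each class). Counting any value outside the lungs gave 64 and 3, 45 and 6, and 51 and 14; contractile cells had 1 apart with median-of-ratios scaling or joint clustering, and pericytes 2 without ribosomal and mitochondrial genes or with joint clustering.

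Without the lung block the pairing was ignored and higher and lower calls were 16 and 24 (epithelium), 24 and 29 (endothelium), 5 and 55 (mesenchyme), 47 and 15 (immune), 7 and 10 (type 2), 3 and 15 (contractile) and 14 and 10 (pericytes). Shares of UMIs outside ribosomal and mitochondrial genes were 3.89% in epithelium, 3.72% in endothelium, 3.49% in mesenchyme and 5.06% in immune cells. Pseudocount, filter, doublet and clustering-resolution settings kept counts within 1.5 times. The core list without its complex IV genes, added after seeing the data, is given beside its counts.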
